A study of Mus musculus with 6 samples.

Results

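Genes of skeletal muscle were examined in back skin of mouse embryos at E15.5. The set held 40 listed genes, from progenitor factors to contractile proteins, and each was read by its brightest probe set (the one with the highest mean over all 6 arrays) among the probe sets annotated to that gene alone. All 40 were found, with 62 such probe sets, among 18193 genes that could be named on the Affymetrix MOE430 2.0 array. The series compared 3 samples from Fzd6 +/- embryos (control) with 3 from Fzd6 -/- embryos (knockout), all of C57BL6/129 mixed strain. Fzd6 encodes a Frizzled receptor of planar cell polarity, and the controls carried 1 mutant copy, so no wild-type skin was in the comparison. Levels are RMA summaries in log2 units, where a difference of 1 is a 2-fold change, and array medians lay between 5.99 and 6.03. The labels call the samples biological replicates. Whether each came from 1 embryo or a pool is not stated there, so p-values measure the spread between these samples.

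Skeletal muscle forms from Pax3 and Pax7 expressing progenitors, which take on muscle fate under the basic helix-loop-helix factors Myf5 and Myod1 and differentiate under Myog. The factors bind E-boxes, short DNA motifs that many muscle genes carry near their starts. Young fibres first use embryonic isoforms of myosin, actin and the acetylcholine receptor and later exchange them for adult ones. A thin sheet of striated muscle, the panniculus carnosus, lies under the skin of mice, and deeper trunk muscle lies beneath it, so dissected back skin may hold muscle without its being a part of the epidermis or dermis.

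The bases upstream of the members' starts were read for shared motifs. RefSeq (GRCm38.p6) gave windows for 32 of the 40 genes, 34 windows in all. In the 250 bases before the start, the E-box CANNTG, where N is any base, occurred in 29 of 34 member windows (85.3%) and in 66.2% of all 32851 windows. The form CAGCTG, which is its own reverse complement and a subset of CANNTG, occurred in 18 of 34 (52.9%) and in 13.0% of all windows. The MEF2 motif was found in 3 member windows (8.82%, against 2.92% of all) and the CArG box in 2 (5.88%, against 1.47%). These 2 were counted only in the strict forms YTAWWWWTAR and CCWWWWWWGG, so looser forms were missed. Here Y is C or T, W is A or T and R is A or G. All these motifs read alike on both strands. The 160 bases before the start are shown for 6 members, with every CANNTG in capitals. Chrna1, Chrng, Mylpf and Atp2a1, which encode 2 receptor subunits, a myosin light chain and a calcium pump, are shown for their CAGCTG boxes, and Myog and Ttn as a regulator and a structural gene whose boxes are of other forms.
Chrna1 (chr2:73580339-73580498, - strand): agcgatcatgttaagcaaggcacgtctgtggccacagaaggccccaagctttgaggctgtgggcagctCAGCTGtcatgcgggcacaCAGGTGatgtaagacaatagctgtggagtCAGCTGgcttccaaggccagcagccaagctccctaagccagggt
Chrng (chr1:87205651-87205810, + strand): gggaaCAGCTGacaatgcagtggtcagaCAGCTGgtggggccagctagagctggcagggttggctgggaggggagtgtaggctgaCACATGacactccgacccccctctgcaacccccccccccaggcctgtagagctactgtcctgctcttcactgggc
Mylpf (chr7:127211448-127211607, + strand): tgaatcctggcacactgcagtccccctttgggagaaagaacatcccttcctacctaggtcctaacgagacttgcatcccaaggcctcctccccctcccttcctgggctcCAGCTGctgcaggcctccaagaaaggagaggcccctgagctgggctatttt
Atp2a1 (chr7:126463074-126463233, - strand): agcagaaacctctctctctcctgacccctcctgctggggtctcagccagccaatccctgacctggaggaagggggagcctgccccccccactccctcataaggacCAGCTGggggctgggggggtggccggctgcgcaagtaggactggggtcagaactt
Myog (chr1:134289844-134290003, + strand): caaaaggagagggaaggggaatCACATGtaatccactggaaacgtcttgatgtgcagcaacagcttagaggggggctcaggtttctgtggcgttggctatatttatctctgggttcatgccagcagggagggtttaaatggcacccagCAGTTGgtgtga
Ttn (chr2:76982548-76982707, - strand): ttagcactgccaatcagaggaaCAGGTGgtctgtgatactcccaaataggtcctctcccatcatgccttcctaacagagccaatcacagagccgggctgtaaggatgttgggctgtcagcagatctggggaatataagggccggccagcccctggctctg
The CAGCTG boxes began 92 and 44 bases before the start in Chrna1, 155 and 132 in Chrng, 51 in Mylpf and 55 in Atp2a1. Myog carried CACATG at 138 and CAGTTG at 12 bases, and Ttn carried CAGGTG at 138. A match describes the letters in the window and does not show that a factor binds there. Of the members without CANNTG, Actc1, Myf5, Myl4 and Pax7 had their lowest level in knockout 2, as most members did, and Ryr1 in knockout 1. Whether the motifs bear on the differences between arrays given below was not tested.

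Facts of the whole series bear on what follows. Fzd6, read first as a check of the labels, measured 9.50, 9.51 and 9.11 in controls 1 to 3 and 9.07, 9.01 and 8.71 in knockouts 1 to 3 in its brightest probe set, a difference of −0.44. A dimmer set differed by −0.67, also without overlap of the groups, and the third by −0.0097 with overlap. None of the 3 passed the limma threshold. Whether the probes lie in the deleted part was not known here. Of the markers of skin, the keratins Krt5 and Krt14 lay between 12.22 and 13.36 on every array, with ranges of 0.85 and 1.14. Of 11 epidermal genes, 10 had higher knockout means (52.4% of all genes), at a median difference of 0.303. The groups did not overlap in 5 of them (11.3% of all genes), and 5 had an unadjusted limma p under 0.05 (5.07%). None passed the limma threshold. Control 1 and knockout 1 stood apart in other cell types, in some lists together and in others not. The list of 11 endothelial and pericyte genes lay at −0.422 and −0.865 there relative to each gene's own mean, against 0.282 to 0.348 on the other 4 arrays, and 13 dermal fibroblast genes lay at −0.251 and −0.492, against 0.133 to 0.247. In adipocyte genes control 1 was high (0.611) and knockout 1 low (−0.247). Adipoq, at 8.64 in control 1 and at most 3.48 on the other arrays, made up most of the control 1 value. In control 1, 6 of 9 adipocyte genes lay above their own mean. Epidermal genes lay at −0.0602 in control 1 and 0.455 in knockout 1. For Y-linked genes (3 measured), control 2 had a mean level of 3.12 and knockout 3 one of 3.15, and the remaining arrays had 7.88 to 8.39. As a check of RNA integrity, 3′ probes minus 5′ probes of Gapdh ran from −0.126 to 0.017 and those of beta-actin from 0.326 to 0.45.

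Whether muscle genes differed when Fzd6 was absent was asked of each member in 1 fit over all probe sets. None of the 40 passed, with a smallest limma adjusted p of 0.917 over 45037 probe sets, of which 0 (0.0%) passed in the whole table. At an unadjusted limma p under 0.05 there were 0 of 40 members, against 5.07% of all genes. In no member did the 3 control and 3 knockout arrays lie apart without overlap, against 11.3% of all genes. The knockout mean was lower in 28 members, where 47.6% of genes were lower, and higher in 12, where 52.4% were. The median difference was −0.0834 over the members and 0.00702 over all genes, and single differences ran from −0.41 to 0.34. When the replicate number entered as a block, 3 probe sets passed in the whole table (0.00666%) and 0 of them were members (smallest limma adjusted p = 0.429). These intervals are wide. For Ttn, the difference of −0.41 carried a 95% confidence interval from −1.20 to 0.38, and for Pax3, the member with the smallest spread, 0.086 carried one from −0.098 to 0.27.

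**Figure D1:**
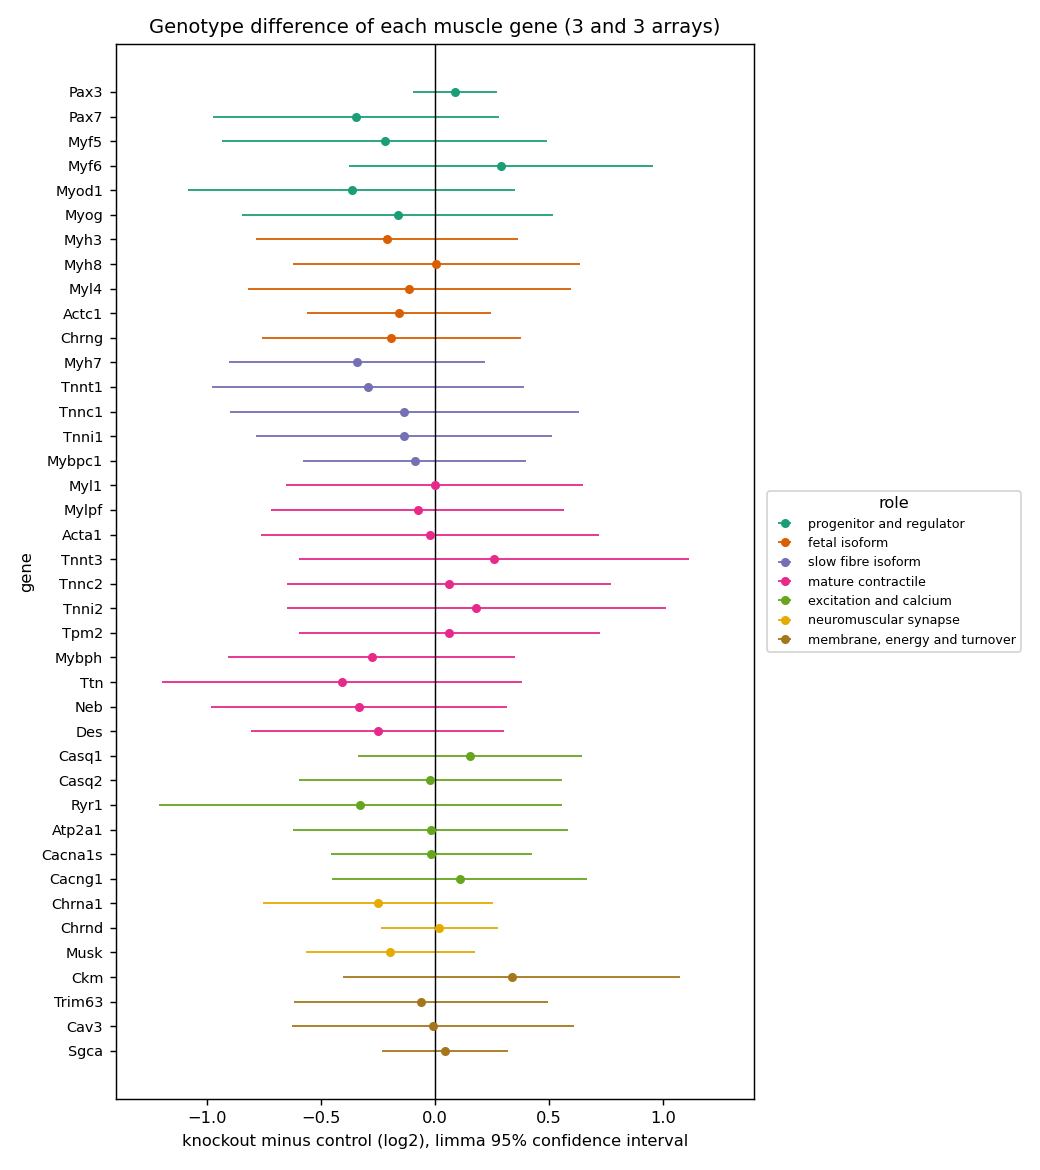
The knockout minus control difference of each muscle gene on the log2 scale (horizontal axis) with its 95% confidence interval from limma, 3 arrays in each group, coloured by role. Every interval spans 0, and the points run from −0.41 (Ttn) to 0.34 (Ckm).

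The members varied far more between samples of the same genotype than most genes did. Their median SD within a group was 0.434, against 0.135 over all genes. A large spread was not particular to muscle, as endothelial and pericyte genes had a median SD of 0.532. It was 0.36 in fibroblast, 0.342 in other skeletal muscle, 0.341 in epidermal and 0.227 in smooth muscle genes. The range from the lowest to the highest array was above 1 in 24 of 40 members, where 5.11% of all genes had such a range, and its median was 1.07, against 0.367. Much of that variation was common to the set: 74.1% of the members' variance lay on 1 component, where the first component of all genes held 51.9%. On it knockout 2 lay at −0.711, control 1 at −0.287, control 3 at −0.00725, knockout 1 at 0.113, knockout 3 at 0.427 and control 2 at 0.466. Arrays of both genotypes thus lay at either end. In these bulk samples, fewer muscle cells and less muscle RNA per cell cannot be told apart.

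Knockout 2 was the lowest array and control 2 and knockout 3 were the highest. The mean of the 40 genes lay at −0.508 in knockout 2 and −0.226 in control 1 relative to each gene's own mean over the arrays, at −0.000966 in control 3 and 0.061 in knockout 1, and at 0.318 in knockout 3 and 0.357 in control 2. Knockout 2 was the lowest of the 6 arrays in 34 of 40 members, against 12.3% of all genes. Either control 2 or knockout 3 was the highest in 32 of 40, against 30.4% of genes, and these arrays were the top pair in 23, against 4.66%. The same 2 arrays are those with the low Y-linked signal. The part of this difference in the muscle values was not tested. With the Y-linked mean as a covariate the median genotype difference was −0.079. Each genotype holds 1 of these arrays, so that fit could hardly move the genotype difference and does not address this question. Without knockout 1 the counts of members lowest in knockout 2 and highest in control 2 or knockout 3 were 34 and 38. Without control 1 they were 34 and 32.

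**Figure D2:**
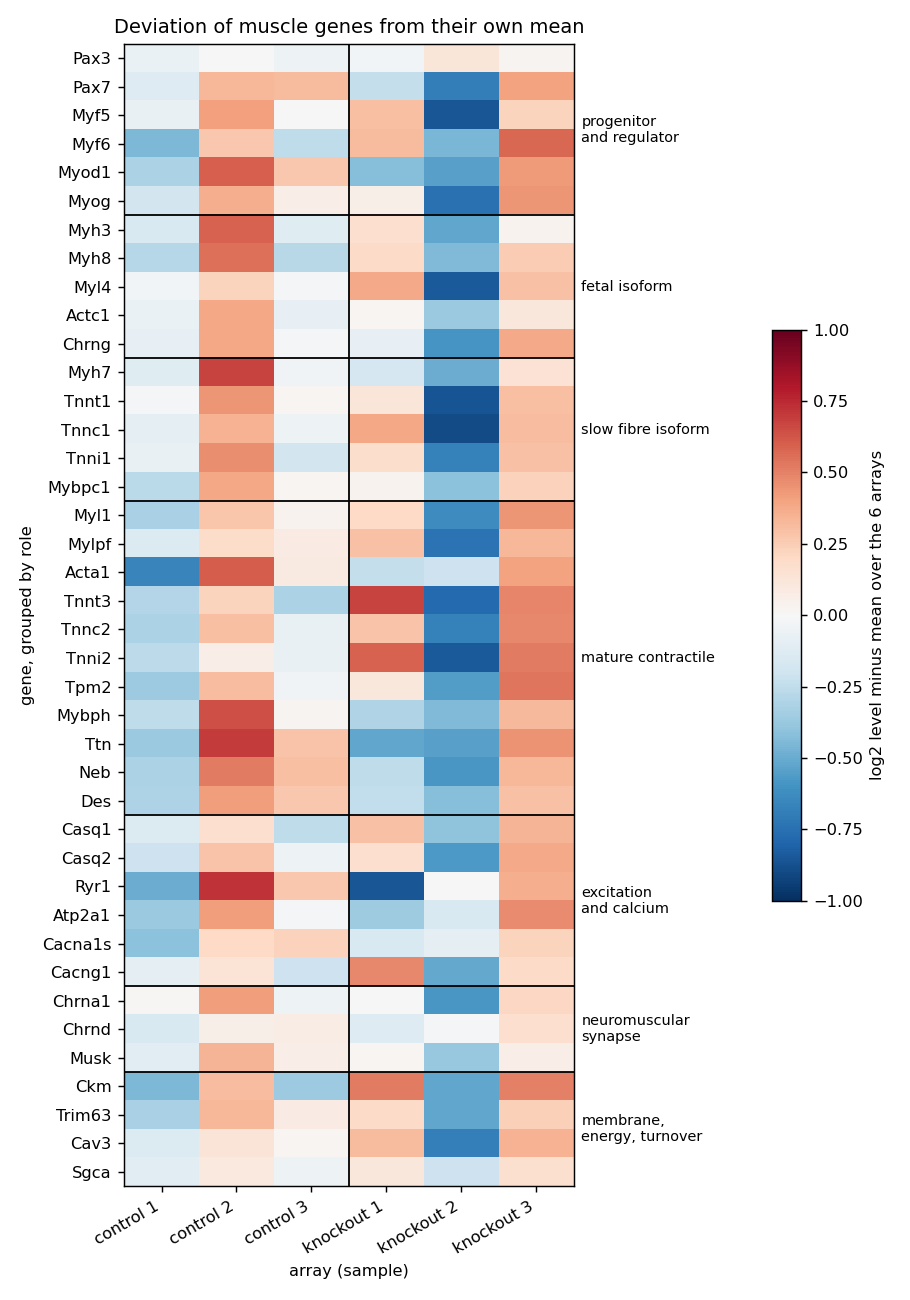
The log2 level of each of the 40 genes minus its own mean over the 6 arrays, 1 row per gene grouped by role and 1 column per array, with controls left of the vertical line. Knockout 2 is blue in nearly every row, control 2 and knockout 3 are red, and knockout 1 holds both colours.

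Compared within replicate numbers, the medians had opposite signs. Knockout 1 was higher than control 1 in 33 of 40 members (46.5% of genes), with a median of 0.283. Knockout 2 was higher than control 2 in 1 (55.1% of genes), with a median of −0.91. Knockout 3 was higher than control 3 in 38 (52.7% of genes), with a median of 0.285. The negative median over all 6 arrays therefore rested on the arrays numbered 2. Without both of them the median difference was 0.282, with 38 of 40 higher. Without knockout 2 alone it was 0.122, with 28 higher, though 0 members passed in either case. Numbers 2 and 3 did not match in Y-linked signal. It was low in control 2 (3.12) and not in knockout 2 (7.88), and low in knockout 3 (3.15) and not in control 3 (7.93). The part of this in the medians was not tested.

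The progenitor factors and regulators were read first by role. Pax3, the paired-box factor of the dermomyotome and also of melanoblasts, was the flattest member, at 6.71, 6.77 and 6.72 in the controls and 6.75, 6.90 and 6.80 in the knockouts. It was the one member whose highest array was knockout 2. The 9 melanocyte genes listed for comparison did not follow the muscle genes either, as they lay at −0.219 in control 2 and 0.345 in knockout 1. Pax7, the progenitor and satellite cell factor, measured 5.73, 6.20 and 6.18 in the controls and 5.63, 5.17 and 6.27 in the knockouts, near or below the array medians, so its values are among the dimmest of the set. Knockout 2 was its lowest array and knockout 3 its highest, which a dimmer Pax7 probe set shared only for the highest (5.40 in knockout 2 and 5.80 in knockout 3, with 5.19 in control 1).

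Myf5, which commits cells to the muscle lineage, measured 6.31, 6.79 and 6.39 in controls against 6.69, 5.52 and 6.61 in knockouts. Knockout 2 stood below all other arrays. Myod1, the other determination factor, measured 7.29, 8.21 and 7.88 against 7.18, 7.06 and 8.04, so control 1, knockout 1 and knockout 2 were low together. Myog, the switch to differentiation, had 10.05, 10.60 and 10.30 in the controls and 10.29, 9.49 and 10.68 in the knockouts. Myf6, a later factor of the same family, lay between 6.89 and 7.92, with its highest value in knockout 3. Across these 6 genes the knockout mean was lower in 4 and higher in 2, and their median difference was −0.193.

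The embryonic and fetal isoforms were lowest in knockout 2 in 5 of 5 and highest in control 2 or knockout 3 in 4. Myh3, the embryonic myosin heavy chain, measured 11.75, 12.49 and 11.78 in the controls and 12.07, 11.38 and 11.94 in the knockouts. Knockout 2 was lowest and control 2 highest, and the groups overlapped. Myl4, the embryonic and atrial light chain, had 11.71, 11.96 and 11.72 against 12.12, 10.90 and 12.03, so that the controls lay close together and knockout 2 lay far below the other knockouts. Chrng encodes the subunit that marks the fetal acetylcholine receptor and had values of 7.45, 7.91 and 7.52 in controls against 7.45, 6.94 and 7.91 in knockouts. Actc1, the cardiac actin used by young skeletal fibres, ranged from 12.92 (knockout 2) to 13.68 (control 2), and Myh8, the perinatal myosin heavy chain, from 8.63 to 9.62 on the same arrays, with a genotype difference of 0.0057.

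Slow fibre genes had lower knockout means in 5 of 5 (47.6% of all genes), with a median of −0.136, and 0 of 5 passed. Without the arrays numbered 2 all 5 differences were positive, from 0.069 (Myh7) to 0.417 (Tnnc1). Without those numbered 1 or 3 all stayed negative. Tnnc1, the slow and cardiac troponin C, measured 11.50, 11.94 and 11.54 in the controls and 11.98, 10.70 and 11.90 in the knockouts. Knockouts 1 and 3 lay at the top of the control range and knockout 2 below it. Myh7, the slow myosin heavy chain, had 9.52, 10.32 and 9.62 against 9.48, 9.15 and 9.80 and differed by −0.34 (95% confidence interval −0.91 to 0.22, limma adjusted p = 0.917). The slow troponins Tnnt1 and Tnni1 differed by −0.29 and −0.14, and the slow myosin-binding protein Mybpc1 by −0.09, each with knockout 2 lowest and control 2 highest.

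Among 11 contractile and structural genes of maturing fibres, 7 had lower and 4 higher knockout means, at a median of −0.0217. Tnnt3 and Tnni2, the fast troponins T and I, had the widest spread of the knockouts. Tnnt3 measured 9.69, 10.20 and 9.66 in the controls and 10.66, 9.21 and 10.47 in the knockouts. Tnni2 measured 10.84, 11.17 and 11.03 against 11.69, 10.26 and 11.62, so 2 knockout arrays lay above all controls and the remaining one below all of them. A slightly dimmer Tnni2 probe set had the same pattern, at 10.08, 9.03 and 10.08 in the knockouts. The third Tnni2 set, far below the array medians, had another pattern, with 4.02, 3.67 and 3.73 in the controls and 4.54, 4.03 and 4.37 in the knockouts, so that its groups did not overlap (limma adjusted p = 0.909).

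Titin and skeletal actin had another order. Ttn, the giant spring of the sarcomere, measured 9.42, 10.49 and 10.08 in the controls and 9.28, 9.25 and 10.24 in the knockouts. Control 1, knockout 1 and knockout 2 were low and close to each other, and the other 3 arrays were high. Acta1, the adult skeletal actin, had 11.68, 12.94 and 12.43 against 12.10, 12.13 and 12.74, with control 1 the lowest. The filament protein Neb (−0.33), the intermediate filament Des (−0.25) and the myosin-binding protein Mybph (−0.28) had lower knockout means. The fast light chains Myl1 (−0.0019) and Mylpf (−0.08) and the fast troponin C gene Tnnc2 (0.06) had means close to each other in both groups.

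Genes of excitation and calcium handling did not share 1 order of arrays. Ryr1, the calcium release channel, measured 7.05, 8.26 and 7.81 in the controls and 6.69, 7.54 and 7.91 in the knockouts. It was the one member that was lowest in knockout 1. Cacng1, a subunit of the calcium channel that triggers Ryr1, was instead highest there, with 6.92, 7.16 and 6.81 against 7.50, 6.50 and 7.21. Cacna1s, the pore of that channel, lay between 5.70 and 6.34 with control 1 lowest, as did the calcium pump gene Atp2a1, between 7.63 and 8.48. The calsequestrins Casq1 and Casq2 were lowest in knockout 2, at 6.70 and 9.25, and highest in knockout 3, at 7.44 and 10.20.

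At the neuromuscular synapse, Chrna1, the receptor's main subunit, had 8.36, 8.76 and 8.30 in the controls and 8.35, 7.76 and 8.55 in the knockouts. Chrnd was nearly flat, between 6.52 and 6.84, and Musk, the kinase that organises the synapse, lay between 5.42 and 6.14. Ckm, the muscle creatine kinase, measured 9.79, 10.54 and 9.87 against 10.75, 9.71 and 10.74, the largest positive genotype difference of the set at 0.34 (95% confidence interval −0.40 to 1.08, limma adjusted p = 0.932). Cav3, the muscle caveolin, ranged from 7.75 to 8.78, Trim63, a ubiquitin ligase of fibres, from 6.03 to 6.88, and Sgca, a sarcoglycan of the membrane, from 6.68 to 7.05. Knockout 2 was the lowest array in each of these 4.

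Progenitor, fetal and mature contractile genes were then compared on each array as means over the genes of a role, each gene taken relative to its own mean. The group called progenitor here held Pax3, Pax7, Myf5, Myf6, Myod1 and Myog. It includes Myog, the switch to differentiation, and the later factor Myf6, so it does not stand for progenitors alone. Its genes lay at −0.205, 0.329 and 0.0573 in controls 1 to 3 and at −0.00247, −0.53 and 0.35 in knockouts 1 to 3. The fetal isoforms lay at −0.121, 0.425 and −0.103 and at 0.138, −0.553 and 0.214. For mature contractile genes the values were −0.328, 0.385 and 0.0539 and 0.0544, −0.584 and 0.419. These roles shared their sign in controls 1 and 2 and knockouts 2 and 3, and took different signs in control 3 and knockout 1. Mature minus progenitor ran from −0.123 (control 1) to 0.069 (knockout 3), and fetal minus progenitor from −0.16 (control 3) to 0.14 (knockout 1). Mature minus fetal was −0.207, −0.04 and 0.157 in controls 1 to 3 and −0.0836, −0.031 and 0.205 in knockouts 1 to 3. The groups overlapped and the sign went with the replicate number. Within each of the 3 numbers the knockout value was higher, though in number 2 the values were nearly level. The other contrasts had higher knockout values in numbers 1 and 3 and lower ones in number 2. There, mature minus progenitor was 0.056 in the control and −0.054 in the knockout, and fetal minus progenitor 0.096 and −0.023. These differences were not tested.

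**Figure D3:**
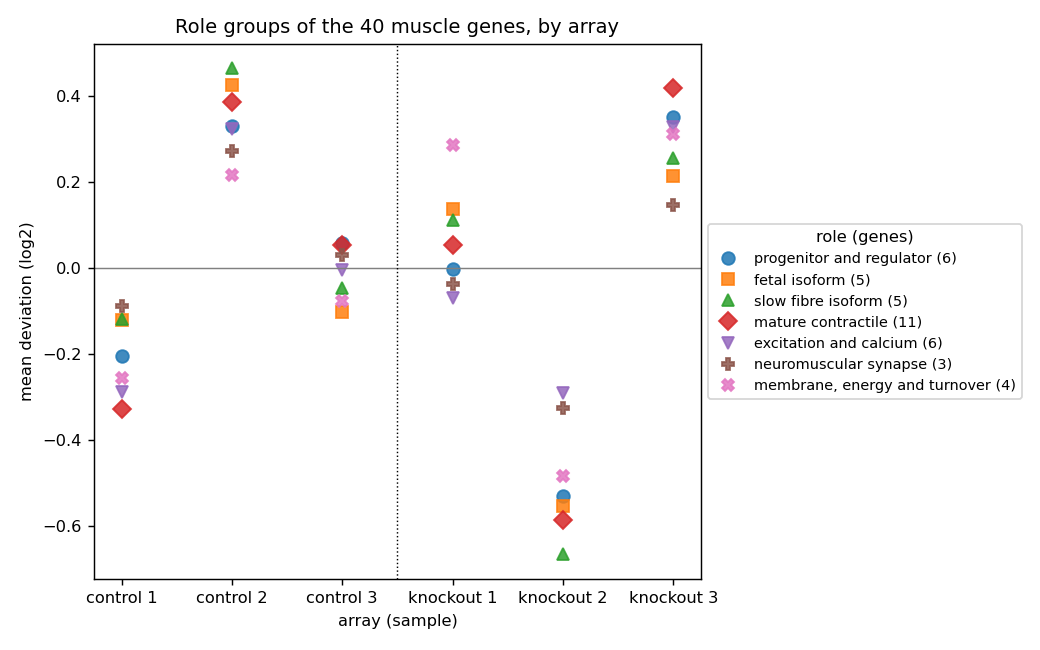
Mean deviation (log2) of each role group on each array, with the number of genes in parentheses and controls left of the dotted line. All 7 groups lie below 0 in control 1 and knockout 2 and above 0 in control 2 and knockout 3, and knockout 1 holds groups on both sides.

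Knockout 1 held members well above and well below their own means. A component with a further 18.2% of the members' variance set it at −0.798, against 0.39 in control 2 and −0.214 in control 1. Set against knockout 2, the array with the least muscle signal, knockout 1 was higher in 34 of 40 members (51.8% of genes), with a median of 0.654. It was more than 1 higher in 7 members, namely Tnnt3 (1.46), Tnni2 (1.43), Tnnc1 (1.28), Myl4 (1.22), Myf5 (1.16), Ckm (1.04) and Mylpf (1.03). It was lower in 6 members (48.1% of genes), namely Ryr1 (−0.85), Atp2a1 (−0.20), Pax3 (−0.15), Chrnd (−0.12), Cacna1s (−0.06) and Acta1 (−0.03), while Ttn (0.02) and Myod1 (0.12) were nearly level. These genes were chosen after their values were seen, and the 2 single arrays allow no test.

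The members low in knockout 1 were in part low in control 1 as well. Control 1 was below control 3 in 34 of 40 members (48.9% of genes), by the most in Ryr1 (−0.76), Acta1 (−0.75), Ttn (−0.65), Cacna1s (−0.64), Neb (−0.61), Myod1 (−0.58) and Des (−0.58). The 7 members that were more than 1 higher in knockout 1 than in knockout 2 had smaller differences there, from −0.22 (Mylpf) and −0.20 (Tnni2) through Ckm (−0.09), Myf5 (−0.08), Tnnc1 (−0.03) and Myl4 (−0.01) to 0.02 (Tnnt3). Control 1 and knockout 1 are also the arrays with low endothelial and fibroblast values, and the part of that in these differences was not tested.

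**Figure D4:**
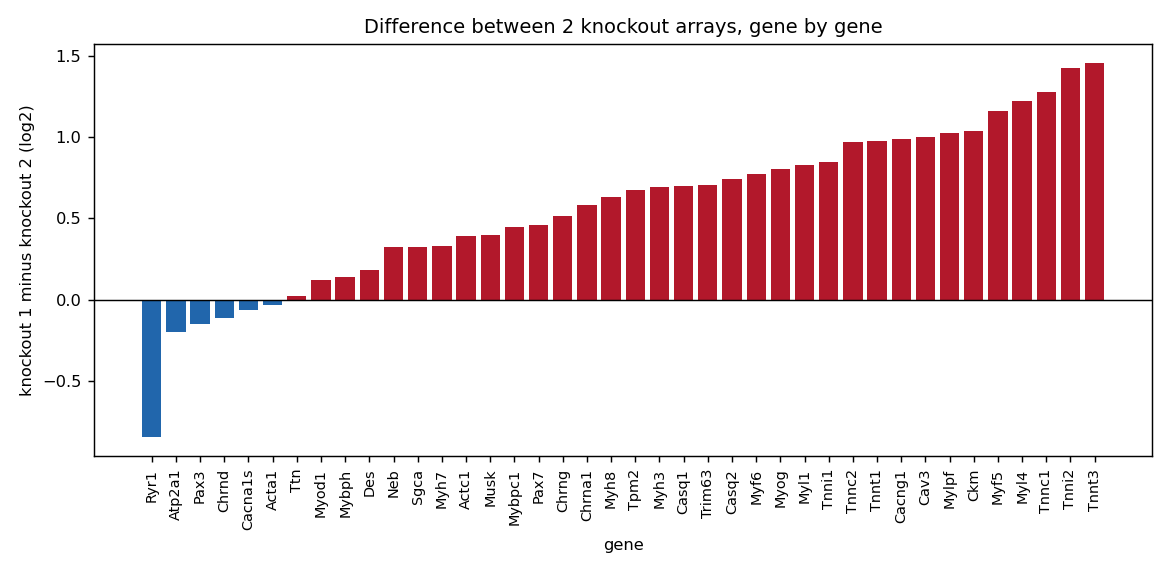
The difference between knockout 1 and knockout 2 (log2, 1 bar per gene, 1 array each and so without error), sorted by size. Bars run from −0.85 (Ryr1) to 1.46 (Tnnt3), and 34 of 40 lie above 0.

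Probe sets of 1 gene parted in the same place. Tpm2, which encodes beta-tropomyosin and is also used by smooth muscle and fibroblasts, had 4 probe sets. In the brightest, knockout 1 lay at 10.72 and knockout 2 at 10.05, so that knockout 1 read higher than knockout 2. In the next 2 the order was turned, at 9.58 and 10.27 in one and at 9.27 and 9.71 in the other, and in the dimmest the values were 6.77 and 6.90. The genotype difference was 0.061 in the brightest set, used for the counts, and −0.145, −0.16 and −0.053 in the others. Which Tpm2 transcripts each set reads, or whether it also reads those of other genes, was not examined. Fibroblast genes were at −0.492 in knockout 1 and 0.247 in knockout 2 and smooth muscle genes at −0.201 and −0.0513. The 2 brightest Ttn sets, by contrast, had the same order of arrays, with 8.90 and 8.87 in knockouts 1 and 2 in the second. In the dimmer Ttn sets these arrays read 6.47 and 6.74, 5.30 and 5.11, 4.78 and 5.27, and 4.32 and 4.34, so their order varied. The dimmer Ryr1 set, like the brightest, read less in knockout 1 (5.67) than in knockout 2 (6.04). In all, 12 members had more than 1 probe set.

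Other muscle genes, taken from a list of 88 of which 81 were measured, showed how far the pattern reached. Of these, 38 had higher and 43 lower knockout means (52.4% and 47.6% of all genes), at a median of −0.016. In this list 0 passed the limma threshold (smallest adjusted p = 0.909). An unadjusted limma p under 0.05 was found in 2, against 5.07% of all genes. The 4 with higher means and the smallest p were Mybpc2, a fast myosin-binding protein (0.27), Mlip (0.49), Myh4, an adult fast myosin (0.20), and Ckmt2, the mitochondrial creatine kinase (0.63). Those with lower means were the stretch-responsive Ankrd1 (−0.25), the fast actinin Actn3 (−0.28), the sarcoglycan Sgcb (−0.24) and the channel subunit Cacna2d1 (−0.31). Mybpc2, Mlip, Myh4, Ckmt2 and Ankrd1 lay below the array medians on all arrays. The adult myosins Myh1, Myh2 and Myh4 lay between 3.39 and 4.02 on all arrays, well below the array medians, and showed no order like that of the members.

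The low end of the members' array order was found in much of that list, and the high end in other lists as well. Knockout 2 was lowest in 45 of its 81 genes and control 2 or knockout 3 highest in 54, and its mean lay at −0.312 in knockout 2 and 0.228 and 0.236 in those arrays. Fusion genes of myoblasts were among them, with Mymk at 7.58, 8.34 and 7.83 in the controls and 7.75, 7.53 and 8.24 in the knockouts, and Mymx lowest in knockout 2 (7.42) and highest in knockout 3 (8.82). Knockout 2 was lowest in 2 of 10 smooth muscle genes and in 0 of 13 fibroblast, 0 of 11 epidermal and 0 of 11 endothelial and pericyte genes. Tendon genes had it lowest in 3 of 7, with a mean of −0.128. Of 9 heart markers, 3 had means above the array medians. Nkx2-5 lay between 6.48 and 6.69, Mybpc3 between 6.28 and 6.57 and Myl7 between 5.78 and 6.85. Myl7 was highest in knockout 1 (6.85) and read at most 6.04 on the other arrays. Myh6 and Nppa lay between 3.51 and 4.74. The mean of the heart list ranged from −0.0357 to 0.0515 over the arrays. At the high end, control 2 or knockout 3 was highest in 7 of 10 smooth muscle, 7 of 11 endothelial and pericyte and 7 of 13 fibroblast genes, against 0 of 11 epidermal genes. The difference between these counts was not tested.

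**Figure D5:**
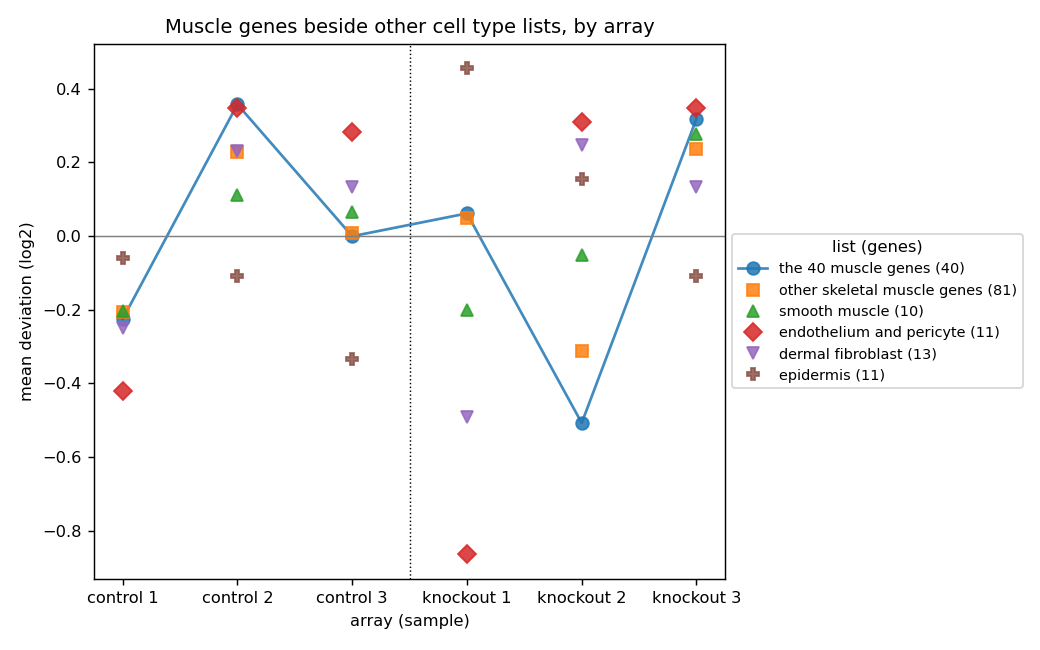
Mean deviation (log2) of the 40 muscle genes (line) and of 5 other gene lists (symbols) on each array, with the number of genes in parentheses. Endothelial and fibroblast genes are above 0 in knockout 2, where muscle genes are at −0.508, and lowest in knockout 1, where muscle genes are at 0.061.

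Genes outside every list were ranked by their likeness to the mean of the members over the 6 arrays, among 1637 with an SD over arrays of at least 0.3. The 5 most alike were Eya4 (Pearson r = 0.988), Fhl1 (0.984), Il17b (0.974), Srpk3 (0.968) and Ak1 (0.962). Since they were picked for this likeness over 6 arrays that share 1 normalisation, the values are a description without a test. Fhl1, a LIM-domain protein, measured 10.78, 11.44 and 11.16 in the controls and 11.16, 10.45 and 11.33 in the knockouts. Eya4 lay between 5.76 in knockout 2 and 6.70 in control 2. None of the 5 differed between genotypes past the limma threshold, and their differences ran from −0.17 (Eya4) to 0.05 (Ak1).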

How the data were processed

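Total RNA (Trizol, then Rneasy) carried a biotin label, per the labels' protocols. The deposited values are RMA summaries, per the submitters' processing notes, and were read as log2 from their range of 2.39 to 14.8. RMA gives all arrays nearly 1 distribution, so a shift of most genes would not show. Of 45101 rows, 64 array controls were left out, and 45037 probe sets entered without a filter. Names came from the platform annotation, updated through Entrez identifiers to GRCm38.p6 (34741 of 34945 single-symbol probe sets matched). Genotypes were compared with limma 3.58.1 in R 4.3.3 (lmFit, eBayes, no covariates, two-sided), p-values adjusted by Benjamini-Hochberg across the whole table, threshold 0.05, after a run on simulated data. Any of the 40 members could be named. Other muscle genes were named by the 4 smallest p in each direction, markers of other cell types as examples, and outside genes by likeness. The members and lists were chosen with earlier results of these data known.

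Replicates are numbered 1 to 3 in either group. Same-numbered arrays deviated together, with correlations of 0.568, 0.359 and 0.124, each over 0.1, so samples were treated as paired by number in the blocked fit. This pairing comes from the data, as the labels leave the number's meaning unstated, and control 2 correlated more with knockout 3 (0.422). Numbers 2 and 3 each joined an array of low Y-linked signal to an array of high Y-linked signal. Alternatives were a variance trend, a filter at the median, quantile normalisation, centring, array weights, the replicate block, a Y-linked covariate, arrays left out, other thresholds and other probe sets. Scanner files were not used here, so signal over background is known only from each level. The correlation between any 2 arrays lay between 0.985 and 0.996, and no pair was a duplicate (smallest SD of a difference 0.199). Figures were drawn with matplotlib 3.10.9.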

Additional observations from a re-analysis of the deposited data

How the results depend on the processing

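No member passed in any of 660 values under the alternatives (smallest limma adjusted p = 0.429, with the replicate block). The count of probe sets past the threshold was 0 in the fit reported, 3 with the replicate block and 2348 at an unadjusted p under 0.05, and the count of members was 0 in each of these. Leaving out 1 array moved the members' median difference between −0.259 (without knockout 3, 6 of 40 higher) and 0.122 (without knockout 2, 28 higher), and it was 0.0524 without control 2. Leaving out both arrays of a number gave −0.29 (number 1), 0.282 (number 2) and −0.263 (number 3), so its sign turned with the arrays. By construction these fits hold fewer arrays. The other settings gave −0.121 to −0.0682. The counts of members lowest in knockout 2 (32 to 34) and highest in control 2 or knockout 3 (32 to 38) kept within these ranges under probe set, centring and array choices added after seeing the data. The means of role groups on each array moved by less than the spread between replicates in all 84 values. For the mean of the members that spread was a pooled SD of 0.364. Many role means were smaller than that, so their signs could turn within it. The number of arrays, 3 in each group, limits the precision, and Pax7, Cacna1s and Musk lay close to the array medians.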
